A study of Mus musculus with 10 samples.

Results

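The cytosolic ribosomal protein genes of mouse dendritic cells are described here as 82 gene symbols out of 24385 in the count table. Members were all symbols beginning with Rpl, Rps or Rplp and a number, without pseudogene symbols and without the Rps6k kinase genes, that had a total of at least 60 counts over the 6 RNA libraries. Of 87 symbols with that pattern, 82 reached the total, 49 of the large subunit (Rpl) and 33 of the small subunit (Rps). The 3 members nearest above the total were Rps27 with 176 counts, Rpl34 with 272 and Rpl3l with 600. Below it stood Rpl30 with 33 counts, Rpl39l with 22, and Rpl10l, Rpl26 and Rps27rt, which were listed at 0. The pattern also takes in Rps19bp1, which encodes a protein that binds Rps19 and is not a part of the ribosome.

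The study compared bone marrow-derived dendritic cells treated with AMLE (apple mango leaf extract) with cells treated with vehicle. AMLE cells received 400 µg/mL of the extract for 24 h, and DMSO cells received 0.04% DMSO for 24 h. All cells came from wild-type female C57BL/6 mice aged 8 to 10 weeks. They were grown for 7 days with the growth factor GM-CSF at 20 ng/mL, and the non-adherent immature cells used for treatment were taken on day 6. Each group had 3 libraries for RNA sequencing and 2 for ATAC sequencing, which maps open chromatin. Whether the replicates are separate mice or cultures is not stated in the labels, and p-values therefore cover no more than the spread among these libraries, which may be technical.

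A ribosome is built from ribosomal RNA and a set of proteins that are needed in nearly equal numbers, so their genes are usually expressed together. Their mRNAs begin with a run of pyrimidines just after the cap, the 5′ terminal oligopyrimidine (TOP) motif, through which mTORC1 and the RNA-binding protein LARP1 control their translation and stability. In dendritic cells, changes in protein synthesis accompany maturation, when the cells make many surface and secreted proteins.

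Counts per library were 26010455 to 34208286 in AMLE and 28457863 to 31413578 in DMSO. All 15 dendritic cell marker genes passed the low-count filter, and their summed level was 13350 to 14990 CPM (counts scaled to the effective library size) in AMLE and 10826 to 14560 CPM in DMSO. The sums overlapped, whereas 8 of the 15 were called higher and 1 lower, with a median log2 fold change of 0.48. Markers of other cell types also differed between the groups. Granulocyte precursor markers summed to 8749 to 12212 CPM in AMLE and 13455 to 21384 CPM in DMSO, with 8 of 10 lower. Macrophage markers summed to 1069 to 1839 CPM in AMLE and 1866 to 2251 CPM in DMSO, with 6 of 10 lower and 1 higher. Mast cell and basophil markers summed to 348 to 671 CPM in AMLE and 214 to 364 CPM in DMSO, with 4 of 8 higher. Lymphocyte markers summed to 35.0 ± 8.31 CPM in AMLE and 32.3 ± 5.90 CPM in DMSO (SD, n = 3 each), with 1 of 7 tested higher, and the globin genes Hba-a1, Hba-a2, Hbb-bs and Hbb-bt were listed at 0. Genes of cell division, of which 20 of 20 were lower, summed to 734 to 911 CPM in AMLE and 2551 to 2861 CPM in DMSO. In these bulk libraries fewer cells of a type and less RNA per cell cannot be told apart, and the part of these shifts in the ribosomal protein values was not tested.

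Pyrimidine runs near the annotated start were present in 32 of the 62 members with promoter sequence. A promoter window of RefSeq, from 250 bases before to 50 after an annotated start, was found for 62 of the 82 members and for 9978 of all genes tested. Runs were counted if at least 8 C or T bases long and reaching within 20 bases of the start on either side, so a counted run need not follow the cap. Members with such a run made up 51.6%, against 24.4% of all genes and 28.1% of genes with a mean of at least 200 CPM. Taken at any length, the longest run reaching that span had a median of 9 bases in members and 5 in all genes. The sequences below run from 60 bases before the start to 19 bases after it, 5′ to 3′ on the coding strand of build GRCm38.p6, so the start base follows the first 60 letters. Capitals mark the longest pyrimidine run where it reached 8 bases, or the first of runs of equal length, as in Rps27l, whose marked run lies wholly before the start base. Rpl7a (chr2:26910747-26910826, plus strand) and Rpl27a (chr7:109519135-109519214, plus strand) are shown because they have long runs, of 21 and 20 bases.
Rpl7a: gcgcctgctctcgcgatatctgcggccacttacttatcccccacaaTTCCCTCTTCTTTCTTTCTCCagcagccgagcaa
Rpl27a: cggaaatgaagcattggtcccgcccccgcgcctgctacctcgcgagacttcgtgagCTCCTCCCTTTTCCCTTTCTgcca
Rpl22l1 (chr3:28805448-28805527, plus strand) and Rpl10a (chr17:28328411-28328490, plus strand, the first of 2 windows) are shown because they were among the members with the largest falls.
Rpl22l1: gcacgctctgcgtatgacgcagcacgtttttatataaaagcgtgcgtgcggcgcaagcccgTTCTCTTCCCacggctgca
Rpl10a: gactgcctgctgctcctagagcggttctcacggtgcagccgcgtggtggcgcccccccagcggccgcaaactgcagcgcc
Rps27l (chr9:66946026-66946105, plus strand, the first of 2 windows) and Rpl37 (chr15:5116553-5116632, plus strand) are shown because they were the members with a mean of at least 10 CPM that were called higher.
Rps27l: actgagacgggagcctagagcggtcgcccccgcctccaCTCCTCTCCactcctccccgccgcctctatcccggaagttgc
Rpl37: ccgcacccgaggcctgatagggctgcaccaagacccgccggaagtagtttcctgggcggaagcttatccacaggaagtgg
In Rpl22l1 the 10-base run began 1 base after the annotated start. Rpl10a and Rpl37 had runs of at most 7 and 6 bases in these windows. Among members called lower with a window 10 of 17 had a run, and among those not called 21 of 42 did.

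Other promoter letters were searched on both strands of the whole window. CCGGAAG, a binding motif of ETS factors, stood in 23 of 62 members (37.1%) and 19.6% of all genes. It is visible in the Rpl37 and Rps27l starts printed above. CTCTTTC, which can overlap the pyrimidine run, stood in 17 members (27.4%) and 8.73% of all genes. The YY1 motif AAGATGGCG stood in 4 members (6.45%) and 3.49% of all genes. The GC box GGGCGG stood in 39 members (62.9%) and 67.0% of all genes, and the TATA box letters TATAAA in 7 members (11.3%) and 8.74% of all genes. The Rpl22l1 start printed above holds TATAAA. These matches describe letters and not bound sites.

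Ribosomal protein transcripts as a group took a slightly smaller share of the RNA after AMLE. They held 4.31%, 4.30% and 3.90% of counts in AMLE replicates 1 to 3, against 4.47%, 4.58% and 4.57% in DMSO replicates 1 to 3. Every AMLE library was below every DMSO library, and AMLE replicate 3 was the lowest. The means were 4.17 ± 0.234% in AMLE and 4.54 ± 0.0583% in DMSO (SD, n = 3 each), a difference of -0.37 percentage points, which was -0.23 without AMLE replicate 3. The same order of groups held for each subunit.

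Large-subunit genes held 2.44 ± 0.135% of counts in AMLE and 2.67 ± 0.0376% in DMSO (SD, n = 3 each), every AMLE library being lower. Small-subunit genes held 1.79%, 1.79% and 1.62% in AMLE and 1.84%, 1.88% and 1.88% in DMSO. The ratio of large to small counts differed by little, at 1.41 in each AMLE library and 1.43, 1.44 and 1.43 in DMSO. The groups did not overlap in that ratio, whose mean was 1.409 ± 0.0031 in AMLE and 1.430 ± 0.0059 in DMSO (SD, n = 3 each). No test was made of these sums, since they are scores over the members. The sums weight genes by their counts. Gene by gene, the median log2 fold change was no lower in the large subunit (-0.08) than in the small (-0.09).

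**Figure D1:**
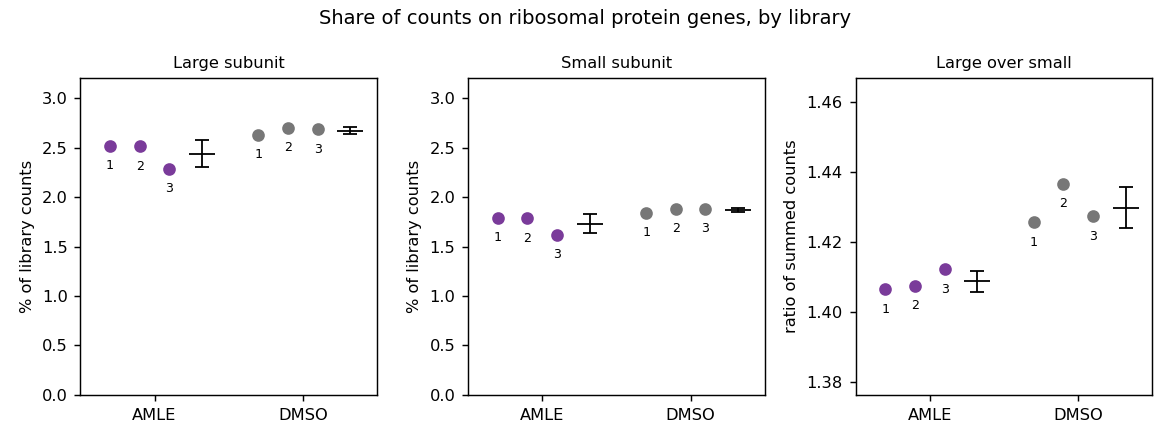
Share of each library's counts, in percent, on large-subunit and small-subunit genes, and the ratio of their summed counts, for AMLE and DMSO replicates 1 to 3 (points, numbered) with mean and SD (bars beside them). AMLE replicate 3 is lowest for both subunits at 2.29% and 1.62%, and the ratio panel has a shortened axis, not starting at 0, on which the AMLE libraries at 1.41 lie below the DMSO libraries at 1.43 to 1.44.

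Gene by gene, 25 of the 82 members were called lower in AMLE (30.5%; 25.6% of all 13075 genes tested) and 3 higher (3.66%; 23.0% of all genes tested), by edgeR's quasi-likelihood test at a Benjamini-Hochberg adjusted p below 0.05. The other 54 were not called. The share called lower was near that of all genes, and the share called higher was below it. The count lower was 15 without DMSO replicate 1 and 12 without DMSO replicate 2. The count higher was 1 without DMSO replicate 1 and 5 without AMLE replicate 3. Of the 25 lower members, 12 were called in each of the 6 fits that leave out a single library, among them Rpl3, Rpl8, Rpl10a, Rpl11, Rpl14, Rpl22l1, Rpl36al, Rps2, Rps6, Rps18 and Rps27a. Among the 3 higher members Rps27l alone was called in all 6 fits.

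The changes were small. The median log2 fold change was -0.09 in members and -0.01 in all genes tested, and 80.5% of members lay within 0.25 of zero on the log2 scale, against 46.4% of all genes. Of the 956 genes with a mean of at least 200 CPM, 52.1% lay within 0.25. Of the 72 members at that level 87.5% did, with 22 lower and 1 higher, whereas 27.5% of the 956 genes were lower and 30.1% higher. At least 0.5 in size were the changes of 4 members, Rpl22l1, Rpl3, Rpl10a and Rpl3l. CPM levels did not overlap between the groups for 40 members (48.8%; 59.7% of all genes tested), with 35 lower in AMLE (31.4% of all genes tested) and 5 higher (28.4%).

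**Figure D2:**
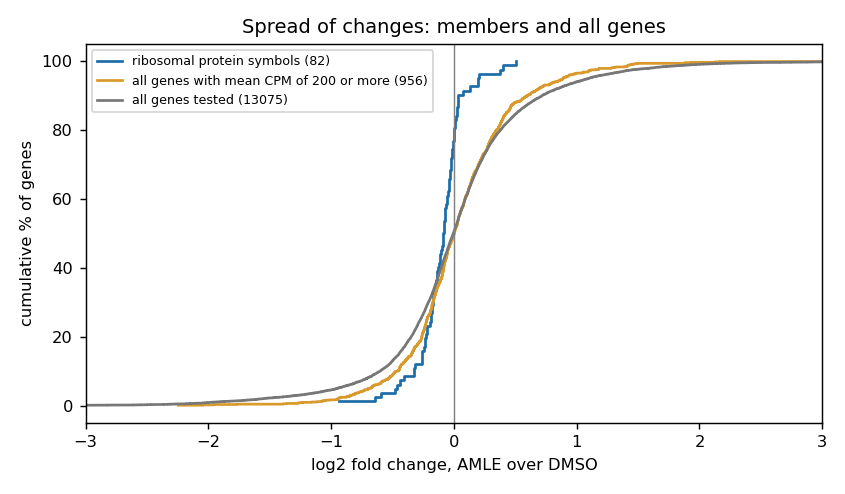
Cumulative percent of genes against log2 fold change of AMLE over DMSO, for the 82 members, the 956 genes with a mean of at least 200 CPM and all 13075 genes tested; the axis is limited to 3 on either side. The member curve rises steeply just below zero, with 80.5% within 0.25 against 52.1% and 46.4%.

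The subunits had close medians. Of 49 large-subunit members 16 were lower and 2 higher, with a median log2 fold change of -0.08. Of 33 small-subunit members 9 were lower and 1 higher, with a median of -0.09. Both medians shrank without AMLE replicate 3, to -0.03 for the large and -0.02 for the small subunit. Per library the median deviation of the 82 members from their DMSO mean was -0.02, -0.05 and -0.19 log2 CPM in AMLE replicates 1 to 3 and -0.02, 0.02 and 0.00 in DMSO replicates 1 to 3. AMLE replicate 3 thus stood apart, with 75 of 82 members below the DMSO mean. The count was 52 and 54 in AMLE replicates 1 and 2, within the range of DMSO replicates 1 to 3, which had 64, 22 and 38.

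**Figure D3:**
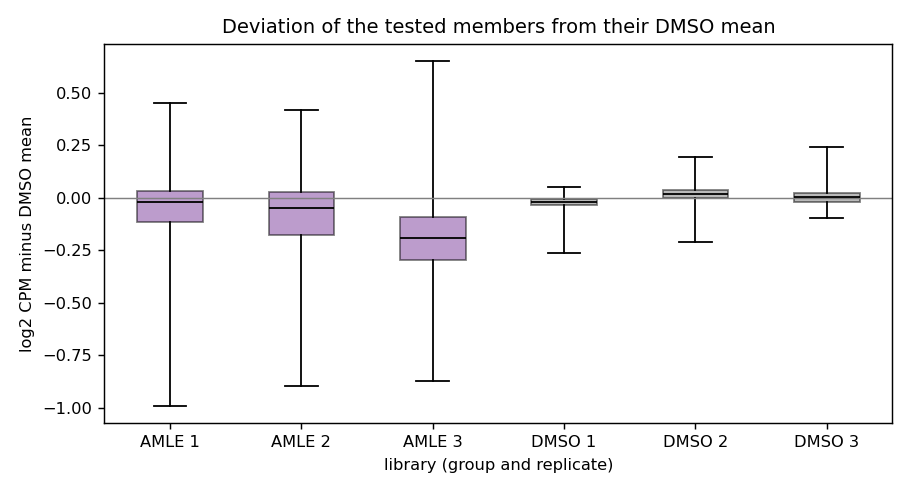
Deviation of the 82 members from their own DMSO mean, in log2 CPM, in each library; boxes span the quartiles, the line is the median and whiskers reach the extremes. The AMLE replicate 3 box lies lowest, with a median of -0.19, and the DMSO boxes are narrow around zero.

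The proteins that surround the catalytic centre of the large subunit and form its L1 stalk had 3 of 4 members lower and a median of -0.46. Rpl3, which reaches toward the peptidyl transferase centre, had 506, 517 and 474 CPM in AMLE and 760, 783 and 802 CPM in DMSO. The AMLE libraries were all far below the DMSO libraries. Its means were 499 ± 22.4 CPM in AMLE and 782 ± 21.0 CPM in DMSO, and its log2 fold change was -0.65 ± 0.06 (edgeR adjusted p = 0.00017). Here and below, ± is the SD over the 3 libraries of a group for mean CPM, and the SE for log2 fold changes.

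Rpl10a, which forms the mobile L1 stalk where spent transfer RNA leaves, had 234, 228 and 206 CPM in AMLE and 320, 340 and 347 CPM in DMSO. Again the groups did not overlap, and the log2 fold change was -0.59 ± 0.06 (edgeR adjusted p = 0.0004). Rpl8, which also lies near the catalytic centre, had 862, 815 and 768 CPM in AMLE and 1016, 1051 and 996 CPM in DMSO. Its log2 fold change was -0.33 ± 0.06 (edgeR adjusted p = 0.0043). The remaining protein of the list, Rpl10, which joins late in assembly, was not called at -0.04 (edgeR adjusted p = 0.62). The 3 calls were made in every fit that leaves out a library.

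The P stalk, which recruits the elongation factors, had 1 of 4 members lower. Rplp0, its core, averaged 1870 ± 102 CPM in AMLE and 1855 ± 30.5 CPM in DMSO, with a log2 fold change of 0.01 ± 0.06 (edgeR adjusted p = 0.89). Its partners Rplp1 at -0.15 ± 0.09 (edgeR adjusted p = 0.22) and Rplp2 at -0.01 (edgeR adjusted p = 0.93) were not called. Rpl12, which sits at the stalk base, had 591, 582 and 528 CPM in AMLE and 666, 687 and 667 CPM in DMSO. All AMLE values were below all DMSO values, and Rpl12 fell 0.25 on the log2 scale (edgeR adjusted p = 0.012; 0.0505 without DMSO replicate 2).

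Rpl5 and Rpl11, which carry the ribosomal 5S RNA into the large subunit and bind Mdm2 when assembly fails, stood on opposite sides of the threshold. Rpl11 had 528, 512 and 470 CPM in AMLE and 587, 613 and 607 CPM in DMSO, a log2 fold change of -0.26 ± 0.06 (edgeR adjusted p = 0.0097). Rpl5 had 587, 585 and 539 CPM in AMLE and 617, 620 and 650 CPM in DMSO, a log2 fold change of -0.14 ± 0.06 (edgeR adjusted p = 0.075). The groups did not overlap in either gene, and the difference between the genes was not tested. Around the peptide tunnel and its exit 2 of 8 tested members, Rpl4 (-0.24) and Rpl35 (-0.14), were lower, neither of which was called without DMSO replicate 2. Without any other single library 1 of them was called. Rpl13a, known in human monocytes as a silencer of inflammatory mRNAs, was not called at -0.02 (edgeR adjusted p = 0.81).

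In the small subunit, 6 of 14 head proteins were lower, among them Rps3, Rps16, Rps18 and Rps27a, with a median of -0.15. Only 2 or 3 of the head proteins were called lower when any single library was left out. Rps27a, which is made fused to ubiquitin, had 577, 584 and 521 CPM in AMLE and 706, 688 and 700 CPM in DMSO. The AMLE libraries were all lower, and the log2 fold change was -0.32 ± 0.06 (edgeR adjusted p = 0.0044). Rps19, the gene most often mutated in human Diamond-Blackfan anaemia, went the other way in level, with 719, 680 and 656 CPM in AMLE and 611, 635 and 635 CPM in DMSO. Its log2 fold change of 0.13 ± 0.05 was not called (edgeR adjusted p = 0.091; 0.0331 without AMLE replicate 3; 0.044 with DESeq2).

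Body and platform proteins of the small subunit had 3 of 16 members lower, among them Rps2 and Rps6, and a median of -0.09. Rps2, which lies at the mRNA entry, had 842, 769 and 680 CPM in AMLE and 1051, 1025 and 965 CPM in DMSO. Its groups did not overlap, and it fell 0.41 ± 0.09 on the log2 scale (edgeR adjusted p = 0.0065). Rps6, the substrate of the S6 kinases downstream of mTORC1, had 453, 456 and 417 CPM in AMLE and 531, 530 and 525 CPM in DMSO. It fell 0.26 ± 0.05 (edgeR adjusted p = 0.0063).

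Among the remaining members the falls were modest. Rpl14 had 415, 431 and 365 CPM in AMLE and 506, 499 and 511 CPM in DMSO, with a log2 fold change of -0.32 ± 0.07 (edgeR adjusted p = 0.007). The calls of Rpl6, Rpl7a, Rpl13, Rpl32 and Rpl36, with log2 fold changes from -0.18 to -0.22, were each lost in at least 1 fit that leaves out a library. With the replicate block Rpl36a (-0.19, edgeR adjusted p = 0.0373) and Rps12 (-0.17, edgeR adjusted p = 0.0358) were lower as well. The 54 members not called were 31 of the large and 23 of the small subunit. Of these 50 had a mean of at least 10 CPM and the lowest of them on the log2 scale was Rpl36a at -0.18. Rps24 (-0.01), Rpl19 (-0.01), Rps9 (0.03) and Rpl23 (-0.03) are examples of abundant members not called. The lowest-count members had wide errors. Both Rps27 and Rpl34 had a promoter peak in all 4 ATAC libraries, and whether reads of them were lost in counting was not tested. Rps27 had 24, 24 and 25 counts in AMLE and 32, 38 and 33 in DMSO (-0.44 ± 0.23, edgeR adjusted p = 0.14), and Rpl34 had 41, 41 and 29 counts in AMLE and 58, 54 and 49 in DMSO (-0.48 ± 0.20, edgeR adjusted p = 0.08).

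**Figure D4:**
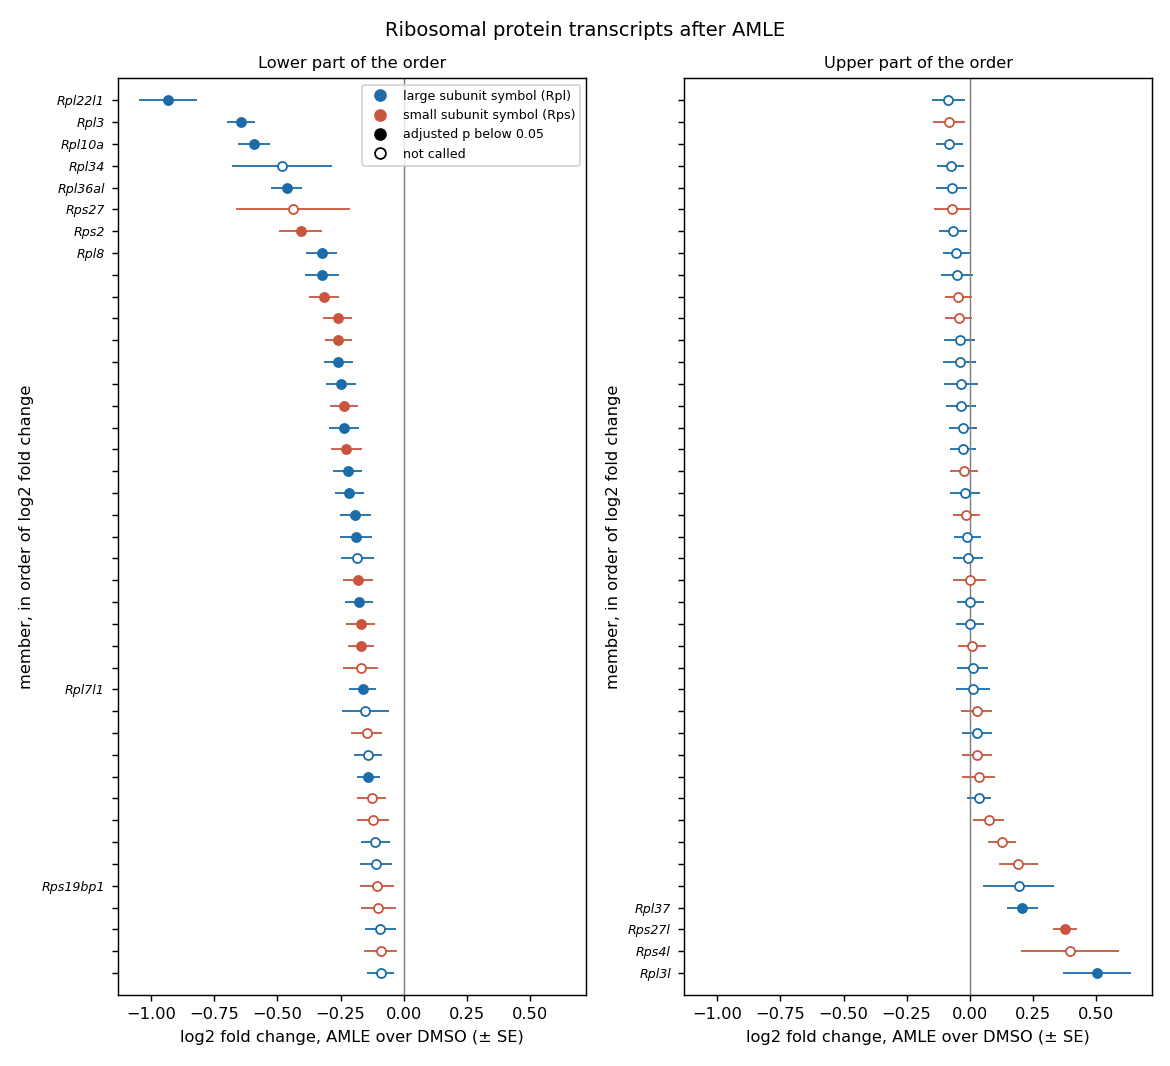
Log2 fold change of AMLE over DMSO for each of the 82 members, in order, with SE and with names for the largest called changes, the paralogues and the members of lowest count; blue marks large-subunit and red small-subunit symbols, and filled points are called at an adjusted p below 0.05. Rpl22l1 at -0.93, Rpl3 at -0.65 and Rpl10a at -0.59 lie lowest, and Rpl3l at 0.50, Rps4l at 0.40 and Rps27l at 0.38 highest.

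Several of the larger changes were in paralogues. In a list of these and of Rps19bp1, 3 of 7 tested were lower and 2 higher. Rpl22l1, the paralogue of the RNA-binding protein Rpl22, had 16.3, 17.4 and 17.7 CPM in AMLE and 31.7, 28.0 and 38.3 CPM in DMSO. The AMLE libraries were close together and all below the DMSO libraries. Its means were 17.1 ± 0.727 CPM in AMLE and 32.7 ± 5.23 CPM in DMSO, a fold of 0.52 and a log2 fold change of -0.93 ± 0.12 (edgeR adjusted p = 0.00072). Rpl22 itself, which in mouse represses Rpl22l1, had 255, 261 and 225 CPM in AMLE and 241, 257 and 236 CPM in DMSO, with overlapping groups and a log2 fold change of 0.01 ± 0.07 (edgeR adjusted p = 0.89). Of the counts of this pair Rpl22l1 took 6.00%, 6.23% and 7.27% in AMLE and 11.6%, 9.81% and 14.0% in DMSO.

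Rpl36al had 83.6, 74.4 and 72.3 CPM in AMLE and 108, 104 and 106 CPM in DMSO, without overlap. It fell 0.46 ± 0.06 on the log2 scale (edgeR adjusted p = 0.001), while its partner Rpl36a was at -0.18 ± 0.07 (edgeR adjusted p = 0.056). Rpl36al thus took 29.1%, 26.8% and 29.0% of the pair's counts in AMLE and 33.6%, 31.7% and 31.9% in DMSO. Rpl7l1, a relative of Rpl7 that acts in assembly, was lower at -0.16 ± 0.05 (edgeR adjusted p = 0.038), a call lost with DESeq2 (0.068), with RLE factors (0.055) and without any single library other than AMLE replicate 1 (0.0515 to 0.113).

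Rps27l, a paralogue of Rps27 known as a p53 target, was the clearest rise. It had 153, 146 and 140 CPM in AMLE and 112, 111 and 115 CPM in DMSO, all AMLE values being higher. It averaged 146 ± 6.54 CPM in AMLE and 113 ± 1.86 CPM in DMSO, a 1.30-fold rise and a log2 fold change of 0.38 ± 0.05 (edgeR adjusted p = 0.00084). Rps27 counts were too few to set beside it. Rpl3l, known as the form of Rpl3 used in striated muscle, was near the bottom in counts, with 3.81, 3.82 and 4.51 CPM in AMLE and 2.73, 2.98 and 2.83 CPM in DMSO. It rose 0.50 ± 0.14 on the log2 scale (edgeR adjusted p = 0.018), a call lost when DMSO replicate 1 (0.0651) or both libraries numbered 3 (0.0511) were left out.

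Rpl37 is not a paralogue, but was the other member called higher. It had 470, 504 and 441 CPM in AMLE and 401, 415 and 408 CPM in DMSO, without overlap. Its log2 fold change of 0.21 ± 0.06 (edgeR adjusted p = 0.025) was not called without any single library other than AMLE replicate 3 (0.0540 to 0.0873). Its copy Rpl37rt, at 8.12, 6.24 and 6.04 CPM in AMLE and 6.07, 5.51 and 6.20 CPM in DMSO, was not called (0.19, edgeR adjusted p = 0.28). Rps4l had 5.24, 4.00 and 6.04 CPM in AMLE and 3.18, 4.21 and 4.17 CPM in DMSO (0.40 ± 0.19, edgeR adjusted p = 0.13; 0.0433 without AMLE replicate 2), and its partner Rps4x was at -0.12 (edgeR adjusted p = 0.16). Rps19bp1 was not called at -0.10 (edgeR adjusted p = 0.23). Reads of near-identical copies may be split between genes, so the values of paralogues are uncertain.

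**Figure D5:**
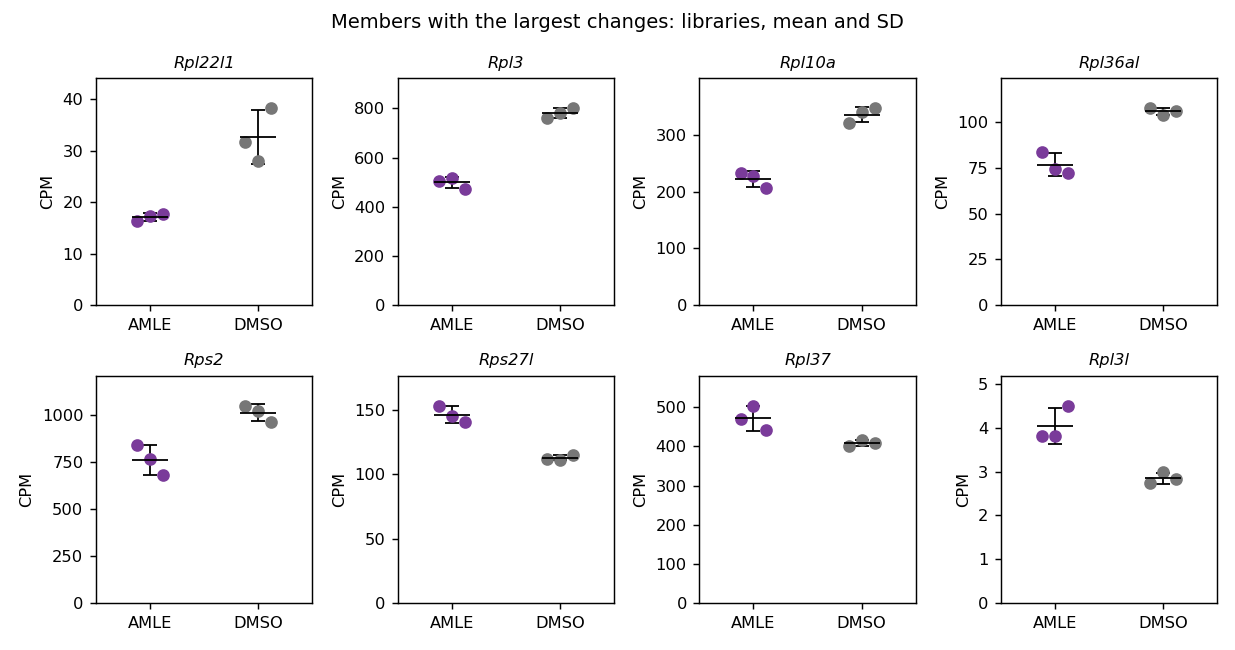
CPM of 8 members in the AMLE and DMSO libraries (points) with mean and SD (bars); every axis starts at 0 and has its own scale. AMLE libraries lie below DMSO libraries for Rpl22l1, Rpl3, Rpl10a, Rpl36al and Rps2, and above them for Rps27l, Rpl37 and Rpl3l.

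To see which members moved against the family, the fit was repeated with library sizes set to the sum of the member counts. This scaling shifts the median of all genes to 0.11 on the log2 scale. Then 8 members were lower (15.2% of all genes tested) and 6 higher (28.7% of all genes tested). The lower ones were Rpl22l1 (-0.82), Rpl3 (-0.54), Rpl10a (-0.48), Rpl36al (-0.35), Rps2, Rpl8, Rpl14 and Rps27a, 6 of the large and 2 of the small subunit. All 8 were also lower in the library-wide fit. That fit uses the same counts without the upward shift, so the overlap is not separate support. The higher ones, among them Rpl3l (0.62), Rps27l (0.49), Rpl37 (0.32), Rps19 (0.24) and Rps26 (0.18), were 2 of the large and 4 of the small subunit, and 3 of them were also higher in the library-wide fit. Without DMSO replicate 1 the counts were 4 lower and 3 higher, without DMSO replicate 2 there were 4 lower, and without AMLE replicate 1 there were 5 lower.

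Ribosomal proteins with other names had mixed values. Gnb2l1, an older symbol of Rack1, the signalling scaffold on the small subunit, was lower at -0.23 ± 0.05 (edgeR adjusted p = 0.011). Fau, which encodes Rps30 fused to a ubiquitin-like protein, was higher at 0.21 ± 0.05 (edgeR adjusted p = 0.014; 0.064 without DMSO replicate 1). Rpsa at 0.00 (edgeR adjusted p = 0.97) was not called.

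Genes that build ribosomes had a lower median than the ribosomal proteins, a difference that was not tested. Of 27 ribosome assembly genes 21 were lower and 1 higher, with a median log2 fold change of -0.48. Dkc1, the pseudouridine synthase of ribosomal RNA, was at -1.11 ± 0.16 (edgeR adjusted p = 0.0015) and Wdr12, a large-subunit assembly factor, at -0.98 ± 0.07 (edgeR adjusted p = 0.00011). Sbds, which helps release the anti-association factor Eif6, was the gene called higher at 0.37, and 2 were higher without AMLE replicate 3 or with the replicate block. Of 20 cell division genes, whose median was -1.93, Plk1 at -2.49 and Ccnb1 at -2.48 fell most.

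Of 19 initiation factors 14 were lower and 1 higher, with a median of -0.27. The eIF2B subunit Eif2b3 (-0.64) and the helicase Eif4a1 (-0.52) fell most, and Eif1 (0.25) was higher. Of 20 other genes listed for TOP mRNAs, mainly translation factors, 9 were lower and 2 higher, with a median of -0.17. The TOP motifs of these genes were not checked here. In that list Npm1 fell by 0.59 (edgeR adjusted p = 0.003) and Eef1g fell by 0.47 (edgeR adjusted p = 0.0013). The higher 2, Eif4a2 (0.39) and Eif3f (0.16), were both not called when DMSO replicate 1 or 2 or AMLE replicate 1 or 2 was left out. Eef1a1 (-0.08), Eef2 (-0.08) and Pabpc1 (-0.01) were not called.

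Of 18 regulators of TOP mRNAs and mTORC1, 6 were lower and 4 higher, with a median of 0.01. Rptor, the defining subunit of mTORC1, rose 0.71 ± 0.06 (edgeR adjusted p = 0.00021) and Mtor rose 0.63, whereas Larp1 fell by 0.32. Myc was at -0.71 ± 0.21 (edgeR adjusted p = 0.028), a call lost without DMSO replicate 1 (0.0862), without DMSO replicate 2 (0.0797) and with no low-count filter (0.0779). Only 3 regulators were called lower without DMSO replicate 1 or 2. Of 11 tested snoRNA host genes, which release small nucleolar RNAs from their introns, 3 were lower and 3 higher, with a median of 0.17. Snhg6 at 0.94 and Snhg5 at -0.83 changed most, and 5 were higher without AMLE replicate 3. Here and above, each list stands beside all genes tested, of which 25.6% were lower and 23.0% higher with a median of -0.01.

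Peaks of open chromatin were called at nearly the same number of member promoters in both groups. A peak overlapped the window of 57 and 58 of the 62 members in AMLE libraries 1 and 2 (69.8% and 69.3% of all genes with a window) and of 58 and 58 in DMSO libraries 1 and 2 (71.2% and 73.6%). The authors' consensus lists held a peak for 57 members in AMLE (66.1% of all genes) and 58 in DMSO (69.2%). At member promoters these lists repeated the fold values of library 1 of each group, so they are not a separate count. In all 4 libraries 57 members had one (91.9%; 64.4% of all genes with a window), and 83.0% of genes with a mean of at least 200 CPM did. Rpl37rt, Rpl3l, Rps19bp1 and Rps25 had no peak in any library, and Rpl35 lacked one in AMLE library 1 alone. Of members called lower, 16 of 17 had a peak in all 4 libraries, and of those not called 39 of 42.

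Peak height was read within each list, as the authors' fold enrichment. The median over member promoters was 10.8 and 11.0 in AMLE libraries 1 and 2 and 12.1 and 14.1 in DMSO libraries 1 and 2. Over all promoters with a peak it was 10.1 and 10.2 in AMLE and 10.5 and 12.1 in DMSO. The median member stood at percentile 56.2 and 57.2 of its list in AMLE and 64.1 and 65.8 in DMSO. The lists differ in length, so whether peak height changed between the groups cannot be read from these ranks. Rpl26, listed at 0 counts in every RNA library, had a promoter peak in all 4 libraries, with folds of 9.62 and 11.6 in AMLE and 14.6 and 15.8 in DMSO.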

How the data were processed

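The authors deposited raw counts per gene symbol for 6 RNA libraries, made with a stranded mRNA kit per the labels' protocols. For each of 4 ATAC libraries and each group they deposited a peak list with a fold enrichment (a ratio) and a −log10 q per summit. Tools listed in the submitters' processing notes, with no role given, include STAR 2.7.11b, Trim Galore 0.6.7, SAMtools 1.7, Bowtie2 2.4.4, Picard and MACS3 3.0.0a7, and the build is mm10. Which tool counted the reads, with which strand setting and annotation, is not given in the sources used here. Reads of near-identical copies, pseudogenes and overlapping genes could therefore be split or lost. No per-sample column was left unused.

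Counts were tested with edgeR 4.0.16 in R 4.3.3: TMM factors, filterByExpr on low counts (minimum count 10), robust dispersions and a two-sided quasi-likelihood F test. Benjamini-Hochberg adjustment ran over all 13075 genes tested, which included all 82 members. The SE was approximated by dividing the size of the log2 fold change by the square root of F. CPM are counts scaled to effective library size. Fold changes are AMLE over DMSO. Alternatives were RLE factors, TMM factors from non-members, DESeq2 1.42.0, limma 3.58.1 (voom), no filter, a block on replicate number, each library left out, and both libraries numbered 3 left out. A peak counted where it overlapped a promoter window by at least 1 base.

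Replicate numbers come from the sample titles. Over all genes, deviations of same-numbered libraries from their group means correlated at 0.29, 0.28 and 0.43 for numbers 1 to 3. Differently numbered libraries of the groups correlated at -0.31 to 0.11 over all genes. Over the members alone same-numbered libraries correlated at 0.22, -0.41 and 0.36, and AMLE replicate 2 with DMSO replicate 1 at 0.55. The labels do not say whether same-numbered libraries are pairs. The main fit did not pair them, and the block on replicate number was an alternative. All replicate pairs differed beyond sampling noise.

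The members and lists were chosen with earlier results of these data known. Named genes are the called members with the largest changes (up to 6 a direction, mean CPM of at least 10), all paralogues, the P stalk, the 5S particle, Rps6, Rps19, Rps27a, Rpl13a, ribosomal proteins with other names, the genes next to the count minimum, up to 4 members a direction against the family, and up to 2 called genes per other list. Levels per coding length were not used here. Other genes were named after their values were seen, and some members and genes of the lists are counted but not reported by name here.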

Additional observations from a re-analysis of the deposited data

How the results depend on the processing

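Member counts lower and higher were 19 and 3 with RLE factors, 20 and 3 with TMM factors from non-members, 22 and 4 with DESeq2, and 25 and 3 with limma-voom or no filter. With the replicate block, which treats same-numbered libraries as pairs, they were 27 and 4. The block changed the calls of 3 members, among them Rpl36a and Rps12. Leaving out single libraries gave 12 to 19 lower and 1 to 5 higher, small-subunit medians of -0.12 to -0.016, large-subunit medians of -0.10 to -0.03, and, against the family, 4 to 11 lower and 3 to 6 higher. Without both libraries numbered 3 the small-subunit median was -0.016, and 17 were lower and 4 higher. The cause was not tested. Promoter peak counts stayed at 56 to 58 when a peak had to cover the start base or reach a −log10 q of 5. Over the alternatives, the genes named by the rule lost a call 20 times, gained one 7 times and never reversed; the list counts without a library were chosen after seeing the data. With 3 libraries a group, the median SE of members was 0.06 on the log2 scale. The smallest called change was that of Rpl35 at -0.14, while Rpl36a at -0.18 was not called. Changes of this size or smaller could therefore be missed.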
